A study of Mus musculus with 6 samples.

Results

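Neuromesodermal progenitors are bipotent cells of the embryonic tail end that feed both the spinal cord and the presomitic mesoderm (PSM), and the genes described here are 6 transcription factor genes used to recognise these progenitors or the mesoderm that leaves them. They were taken by name, as T, Sox2, Nkx1-2, Sp8, Tbx6 and Msgn1, from a table of 35506 genes, and all 6 were among the 13617 autosomal genes with enough reads to test. The values were RNA-sequencing reads scaled to exon length and library size (RPKM), from tailbud tissue containing the PSM, cut below the last segmented somite of FVB/NJ mouse embryos with 8 somites at embryonic day 8.5. 3 libraries came from wild-type (WT) embryos, Smchd1 +/+, and 3 from embryos homozygous for the MommeD43 allele, Smchd1 MommeD43/MommeD43, a missense allele found in a chemical mutagenesis screen for modifiers of transgene silencing. Smchd1 encodes a chromatin protein that represses, among others, Hox genes, and the study collected this tissue to ask how the allele changes Hox expression before the vertebrae form. Replicate 1 of WT and replicate 1 of MommeD43 were males that, by the labels, shared a mother. The remaining libraries, replicates 2 and 3 of each genotype, were from females with a mother of their own each. 1 label names the source as neural stem cells while the tissue label and the methods name the tailbud. Marker genes are read against these labels below.

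T (brachyury), a T-box factor, is needed for the primitive streak, the notochord and posterior mesoderm, and Sox2, an HMG-box factor, keeps cells in a neural or pluripotent state. Cells that hold both proteins are commonly called neuromesodermal progenitors. In these cells Wnt and FGF signals sustain T, Nkx1-2 and Sp8, whereas Tbx6 and its target Msgn1 carry cells into the PSM, where Tbx6 represses Sox2.

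Library size ran from 10957916 reads in MommeD43 replicate 1 to 47298348 reads in MommeD43 replicate 2, a 4.32-fold range. Smchd1 itself was measured at 8.07 ± 0.672 RPKM (WT) and 7.58 ± 0.4 RPKM (MommeD43) (SD, n = 3; adjusted p = 0.999, limma), which is no check of the labels, since the allele is a missense change. WT replicate 1 stood apart for the genes described here. It held the highest level of 6 of 6 of them, against 18.5% of all autosomal genes tested. The genotype difference of each of the 6 genes is therefore given with and without it. Because that library was the highest for each gene, leaving it out raises each fold change by construction. The values without it are descriptions, and their p-values are no separate test.

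The 6 genes lie on 4 autosomes of GRCm38. T (ENSMUSG00000062327) spans chr17:8434423-8442496 on the plus strand, Sox2 (ENSMUSG00000074637) chr3:34650405-34652461 on the plus strand, and Sp8 (ENSMUSG00000048562) chr12:118846329-118852576 on the plus strand. Tbx6 (ENSMUSG00000030699) spans chr7:126781483-126785560 on the plus strand, Nkx1-2 (ENSMUSG00000048528) chr7:132594878-132599637 on the minus strand, and Msgn1 (ENSMUSG00000047002) chr12:11208360-11208972 on the minus strand. Sox2 and Msgn1 each have 1 exon. Nkx1-2 shares 16.57% of its exon bases with the antisense gene Gm16764, which had at most 6 reads in any library, and the other 5 share none with another gene's exons. Sox2 sits inside an intron of the noncoding Sox2ot, whose level was between 0.0725 and 0.146 RPKM.

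The upstream windows of T, Tbx6 and Msgn1 are printed because these genes act in mesoderm and the correlations between their levels were among the highest of the group (below). The sequences are RefSeq's, from GRCm38.p6, written 5′ to 3′ on the gene's own strand and ending at the base before the gene's start. Capitals mark the letters CTTTGA, a core recognised by the TCF/LEF factors of Wnt signaling, and AGGTGT, a T-box half-site, on either strand (so CTTTGA can read TCAAAG); no marked letters of the motifs overlap.
T, chr17:8434173-8434422, plus strand: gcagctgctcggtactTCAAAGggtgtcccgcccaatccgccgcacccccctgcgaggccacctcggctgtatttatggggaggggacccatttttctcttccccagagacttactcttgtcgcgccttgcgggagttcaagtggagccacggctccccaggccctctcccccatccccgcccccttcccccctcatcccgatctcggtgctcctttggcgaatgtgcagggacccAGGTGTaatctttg
Msgn1, chr12:11208973-11209198, minus strand: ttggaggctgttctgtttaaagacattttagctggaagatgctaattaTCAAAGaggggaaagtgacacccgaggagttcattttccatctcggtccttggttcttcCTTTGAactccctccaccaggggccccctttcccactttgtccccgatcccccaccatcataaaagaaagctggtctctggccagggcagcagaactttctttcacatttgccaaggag
Tbx6, chr7:126781233-126781482, plus strand: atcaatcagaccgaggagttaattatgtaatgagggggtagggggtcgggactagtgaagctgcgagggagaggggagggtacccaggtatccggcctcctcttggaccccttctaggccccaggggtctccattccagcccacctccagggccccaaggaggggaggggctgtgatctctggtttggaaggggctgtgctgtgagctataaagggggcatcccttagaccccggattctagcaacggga
The T window held 1 match of CTTTGA, 234 bases before the gene's start, and 1 match of AGGTGT, 14 bases before it. The 226-base Msgn1 window held 2 matches of CTTTGA, at 178 and 119 bases. The Tbx6 window above held neither, as did those of Sox2, Nkx1-2 and Sp8. The RefSeq start used for Sox2 lay 410 bases upstream of the start given above, so the bases between were not read. Sp8 had 3 RefSeq windows, and only the window ending at the start given above was used. Over 32817 RefSeq windows of 250 bases, 13.8% held CTTTGA at least once, 1.36% held it 2 or more times, and 11.8% held AGGTGT. These matches describe the letters of the windows and do not locate a bound site.

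Among the 6 genes T was the most abundant and Sox2 and Sp8 the least, on the RPKM scale, which allows for exon length. The means over 6 libraries were 138 RPKM for T, 98.6 for Msgn1, 65.7 for Nkx1-2, 39.1 for Tbx6, 13.8 for Sox2 and 13.4 for Sp8. By mean log2 RPKM T ranked 246 among the autosomal genes tested, Msgn1 364, Nkx1-2 604, Tbx6 1244, Sox2 3669 and Sp8 3792. The mean of T was 1.4 times that of Msgn1, and the mean of Msgn1 was 1.5 times that of Nkx1-2. In each pair the first gene was the higher in 6 of 6 libraries, although the ranges of neighbours overlapped between libraries. Nkx1-2 lay 1.68-fold above Tbx6, and Tbx6 2.83-fold above Sox2, with ranges that did not overlap. Sox2 and Sp8 could not be ordered: Sox2 was the higher in 3 of 6 libraries, and their means differed 1.03-fold.

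**Figure D1:**
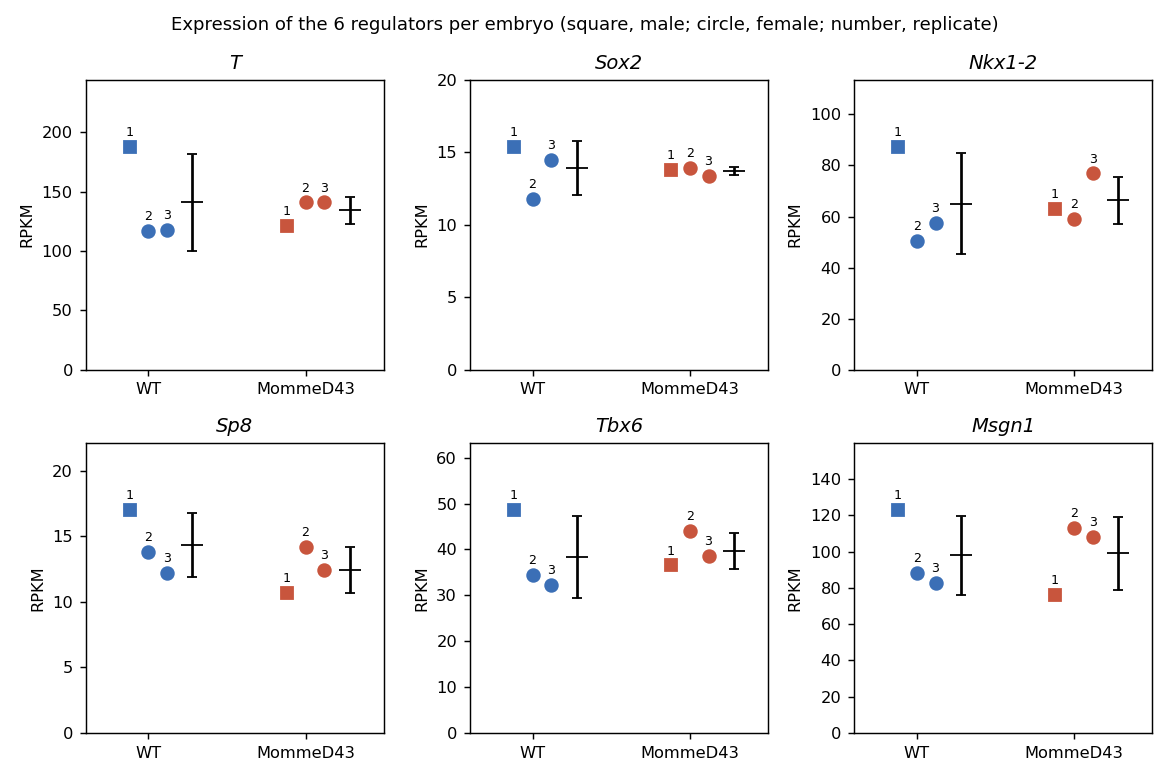
RPKM (y axes, each from 0) of the 6 genes in every embryo, WT in blue and MommeD43 in red, squares for males and circles for females, with the replicate number above each point and the mean ± SD (n = 3) as a bar beside each group. WT replicate 1 is the highest point of every panel, and the groups overlap in every panel.

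T and Nkx1-2, the markers of the progenitor state, showed no genotype difference beyond the spread between embryos. T was at 188, 117 and 118 RPKM in WT replicates 1, 2 and 3, and at 121, 141 and 141 RPKM in MommeD43 replicates 1, 2 and 3. Only WT replicate 1 lay above the MommeD43 range, with 1.56 times the median of the other 5 libraries, and the other WT libraries lay below that range. The means of 141 ± 40.9 and 134 ± 12 RPKM (SD, n = 3) gave a log2 fold change, MommeD43 against WT, of -0.04 ± 0.17 (SE, 95% interval -0.44 to 0.36; limma adjusted p = 0.999). Without WT replicate 1 the log2 fold change of T was 0.19 (limma adjusted p = 0.695), a rise that follows from leaving out its highest library.

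Nkx1-2, a homeobox gene of the caudal epiblast, was at 87.4, 50.3 and 57.5 RPKM in WT and at 62.9, 59.1 and 76.9 RPKM in MommeD43, in replicate order. Here MommeD43 replicate 3 and WT replicate 1 were high and WT replicate 2 was low, so that the MommeD43 range lay inside the WT range. Its means were 65.1 ± 19.7 and 66.3 ± 9.41 RPKM (SD, n = 3), with a log2 fold change of 0.06 ± 0.19 (SE, 95% interval -0.38 to 0.50; limma adjusted p = 0.999) and of 0.29 without WT replicate 1 (adjusted p = 0.695).

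Sox2 varied least of the 6 genes. It was at 15.4, 11.8 and 14.5 RPKM in WT and at 13.8, 13.9 and 13.4 RPKM in MommeD43. The 3 MommeD43 values, which lay within the WT range, spanned less than the counting error of the smallest library, where 311 reads gave an exact Clopper-Pearson 95% interval of 12.3 to 15.4 RPKM (counting error only). Means were 13.9 ± 1.9 and 13.7 ± 0.266 RPKM (SD, n = 3), a log2 fold change of -0.01 ± 0.1 (SE, 95% interval -0.24 to 0.22; limma adjusted p = 0.999), and 0.07 without WT replicate 1 (adjusted p = 0.846). This interval was the narrowest of the 6.

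Sp8, a zinc-finger gene that acts downstream of Wnt signaling in the tailbud, had the most negative fold change of the group, and it too did not pass. Its levels were 17, 13.8 and 12.2 RPKM in WT and 10.7, 14.2 and 12.4 RPKM in MommeD43. MommeD43 replicate 1, from the smallest library with 534 reads for this gene, was the lowest, and MommeD43 replicates 2 and 3 lay within the WT range. Means of 14.3 ± 2.41 and 12.4 ± 1.78 RPKM (SD, n = 3) gave a log2 fold change of -0.20 ± 0.14 (SE, 95% interval -0.52 to 0.12; limma adjusted p = 0.999), which moved to -0.07 without WT replicate 1 (adjusted p = 0.877).

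Tbx6 and Msgn1, the regulators of PSM fate, likewise had overlapping groups. Tbx6, the T-box factor that turns progenitors to a mesodermal fate, was at 48.6, 34.4 and 32.2 RPKM in WT and at 36.5, 44.1 and 38.5 RPKM in MommeD43. All 3 MommeD43 libraries lay between WT replicate 1 and the other WT libraries. The means were 38.4 ± 8.92 and 39.7 ± 3.91 RPKM (SD, n = 3), with a log2 fold change of 0.07 ± 0.15 (SE, 95% interval -0.27 to 0.41; limma adjusted p = 0.999) and of 0.25 without WT replicate 1 (adjusted p = 0.695).

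Msgn1, a basic helix-loop-helix gene needed for maturation of the PSM, was at 123, 88.1 and 82.7 RPKM in WT and at 76.2, 113 and 108 RPKM in MommeD43. The MommeD43 male was the lowest library and the WT male the highest, and the 4 females lay between them. The 512 Msgn1 reads of the MommeD43 male bounded its level at 69.8 to 83.1 RPKM (exact Clopper-Pearson 95% interval), which overlapped the interval of WT replicate 3 (77.2 to 88.5 RPKM) and of no other library. The means were 97.9 ± 21.9 and 99.2 ± 20 RPKM (SD, n = 3), with a log2 fold change of 0.02 ± 0.18 (SE, 95% interval -0.40 to 0.44; limma adjusted p = 0.999), and 0.20 without WT replicate 1 (adjusted p = 0.751).

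In all, 0 of 6 genes passed an adjusted p of 0.05 between the genotypes and 0 passed at an unadjusted p under 0.05, against 0.0% and 2.4% (327 genes) of the 13617 autosomal genes tested. In 0 of 6 did the groups fail to overlap, against 7.08% of autosomal genes. 3 fold changes were positive and 3 negative, with a median of 0.01 on the log2 scale, where the median of all autosomal genes tested was 0.0. None of these values shows that the genotypes were equal: the 95% intervals reached from -0.52 (Sp8) to 0.50 (Nkx1-2). In tissue pieces of this kind, fewer cells of a type and less RNA per cell cannot be told apart.

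The spread between WT embryos was wide for several of these genes. The SD of log2 RPKM in WT was 0.39 for T, 0.42 for Nkx1-2, 0.32 for Tbx6 and 0.31 for Msgn1, where the median over autosomal genes was 0.13 in WT and 0.13 in MommeD43. In MommeD43 the SD was 0.13 for T, 0.2 for Nkx1-2, 0.14 for Tbx6 and 0.03 for Sox2, and 0.31 for Msgn1. Without a test of it, this difference in spread is a description: with 3 embryos a group, the WT value of T came from 1 library.

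When the females were compared alone, T, Nkx1-2, Tbx6 and Msgn1 were each higher in both MommeD43 females than in both WT females. That held for 4 of 6 genes, against 21.8% of autosomal genes tested, and Sox2 and Sp8 overlapped. On the log2 scale the females differed by 0.37 ± 0.06 for Msgn1 (SE, 95% interval 0.23 to 0.52; limma adjusted p = 0.159) and by 0.26 ± 0.05 for T (95% interval 0.14 to 0.39; adjusted p = 0.317). Tbx6 differed by 0.31 ± 0.08 (limma adjusted p = 0.501) and Nkx1-2 by 0.33 ± 0.13 (adjusted p = 0.57). All 4 were thus higher in MommeD43 females at an unadjusted p under 0.05, against 4.61% of autosomal genes, and 0 of 6 passed after adjustment over all autosomal genes. The 4 genes varied together (below), so the counts in this comparison are not separate results. Sox2 and Sp8 differed by 0.07 and 0.03 (limma adjusted p = 0.862 and 0.936). The group of females has 2 embryos a genotype, each from a different mother.

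The male pair went the other way. The MommeD43 male was below the WT male by a log2 difference of -0.65 for T, -0.69 for Msgn1, -0.67 for Sp8, -0.48 for Nkx1-2, -0.41 for Tbx6 and -0.16 for Sox2, with 1 embryo a genotype and so no error of its own. In the comparison of the male pair with the females, the error used is therefore that of the females. The male difference was more negative than the female difference for 6 of 6 genes, against 52.1% of autosomal genes. As the WT male was the highest library for all 6 genes, a male difference below 0 was already given for each. The 6 genes also varied together (below), so the counts in this paragraph are not 6 separate results. The male difference minus the female difference was -0.91 ± 0.09 for T (SE, 95% interval -1.13 to -0.69; limma adjusted p = 0.0275) and -1.06 ± 0.11 for Msgn1 (95% interval -1.32 to -0.81; limma adjusted p = 0.0263). These 2 of 6 genes passed, against 0.272% of autosomal genes (37, of which 9 were more negative in the male pair), and 5 of 6 had an unadjusted p under 0.05, against 10.8%. The others were -0.80 ± 0.22 for Nkx1-2 (limma adjusted p = 0.298), -0.72 ± 0.14 for Tbx6 (adjusted p = 0.145), -0.70 ± 0.17 for Sp8 (adjusted p = 0.239) and -0.22 ± 0.19 for Sox2 (adjusted p = 0.672).

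This contrast rests on 2 residual degrees of freedom. Its error came from the spread of the 4 females (moderated by limma across genes), and the lone male of each genotype was assumed to vary as the females did. The calls for T and Msgn1 were lost without WT replicate 2 (limma adjusted p = 0.237 and 0.134), without WT replicate 3 (0.224 and 0.219) and when the variance was not modelled on the mean (0.272 for both). Sex, mother and single embryo cannot be told apart in it, since both males came from the same mother and there was 1 in each group.

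**Figure D2:**
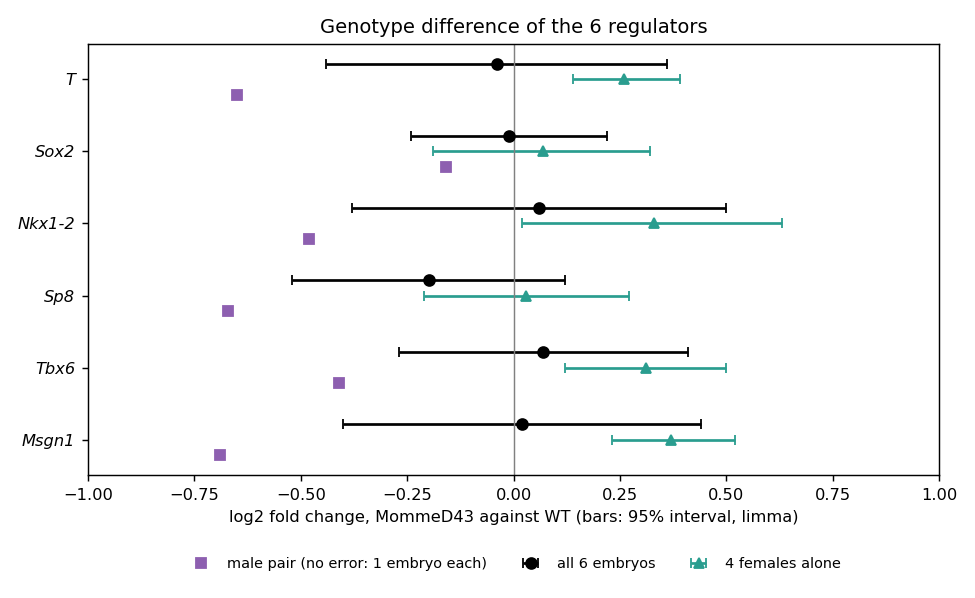
Log2 fold change, MommeD43 against WT (x axis), for the 6 genes (y axis): black circles for all 6 embryos, green triangles for the 4 females alone, both with 95% limma intervals, and purple squares for the male pair, which has no error. All 6 black intervals cross 0, the female intervals of T, Nkx1-2, Tbx6 and Msgn1 lie above 0, and all 6 male values lie below 0.

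Levels of the 6 genes were positively correlated over the 6 libraries, least so for Sox2, which varied least, although no pair passed after adjustment. All 15 pairwise Pearson r of log2 RPKM were positive, from 0.27 (Sox2 with Sp8) to 0.92 (T with Tbx6), with a median of 0.69. All Spearman rho were positive too, from 0.26 to 0.94. The 15 pairs share 6 genes that were all highest in WT replicate 1, so they are not 15 separate results. No share over other gene pairs is given beside them. For T and Tbx6, r was 0.92 (exact permutation p = 0.00833, adjusted over 15 pairs p = 0.125) and rho was 0.94 (exact permutation p = 0.0167, adjusted p = 0.125). For T and Msgn1, r was 0.88 (exact permutation p = 0.0306, adjusted p = 0.142) and rho was 0.77 (p = 0.103, adjusted p = 0.257), and for Tbx6 and Msgn1, r was 0.86 (p = 0.0306, adjusted p = 0.142) and rho was 0.83 (p = 0.0583, adjusted p = 0.219). T with Nkx1-2 gave r = 0.86 and rho = 0.83 (exact permutation p = 0.0389 and 0.0583, adjusted p = 0.142 and 0.219), and Sp8 with Msgn1 gave r = 0.80 and rho = 0.94 (exact permutation p = 0.0472 and 0.0167, adjusted p = 0.142 and 0.125). These 5 pairs had an unadjusted two-sided Pearson p under 0.05 and 0 of 15 passed after adjustment. The smallest p that 720 pairings can give was 0.00278.

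These correlations depended in part on WT replicate 1, the highest library for each of the 6 genes. Leaving it out therefore tends to lower r by construction. Without it, as an added comparison, r ran from -0.41 to 0.92 with a median of 0.37, and 12 of 15 pairs remained positive. The pairs among T, Tbx6 and Msgn1 stayed high, with r of 0.92 for T and Msgn1, 0.86 for T and Tbx6 and 0.77 for Tbx6 and Msgn1, and T with Nkx1-2 was at 0.65. Sp8 with Sox2 and Sp8 with Nkx1-2 became negative, at -0.40 and -0.41, and Sox2 with Msgn1 was at -0.01. After the mean of each genotype was removed, r over the 6 libraries ran from 0.28 to 0.95. When the 2 libraries farthest from the median of the first gene of a pair were left out, WT replicate 1 and 1 other in every case, T with Msgn1 was at 0.96, T with Tbx6 at 0.85 and Tbx6 with Msgn1 at 0.55, and 6 of the 15 pairs, each with Sox2 or Nkx1-2, were negative. These were the pairs of Sox2 with T, Nkx1-2, Tbx6 and Msgn1, and those of Nkx1-2 with Sp8 and Msgn1. Leaving out the farthest libraries narrows the range of the first gene, which tends to lower r, and few libraries remain. The negative signs therefore cannot decide whether these relations rest on those libraries. The 2 males and the 4 females are too few for a correlation within each sex.

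**Figure D3:**
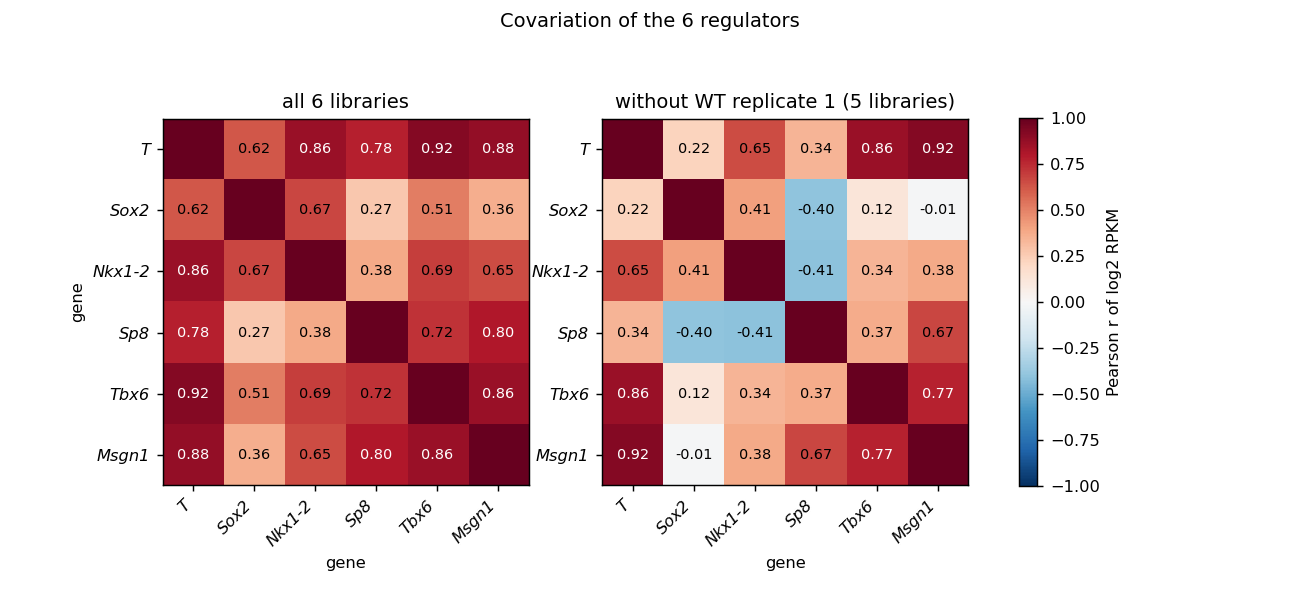
Pearson r of log2 RPKM for each pair of the 6 genes, with both axes listing the genes and colour running from -1 (blue) to 1 (red), over all 6 libraries on the left and over 5 libraries without WT replicate 1 on the right. The block of T, Tbx6 and Msgn1 keeps r from 0.77 to 0.92 on the right, while pairs with Sox2 fall to between -0.40 and 0.41.

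Ratios between members within a library do not depend on library size, and none separated the genotypes. T over Sox2, the pair that defines the progenitors, was 12.2, 9.99 and 8.11 in WT and 8.73, 10.2 and 10.5 in MommeD43, with a log2 difference between the group means, MommeD43 minus WT, of -0.03 (0.12 without WT replicate 1) and an SD over the 6 libraries of 0.21. Its highest and lowest values were both WT. Nkx1-2 over Sox2 was 5.68, 4.28 and 3.96 in WT and 4.56, 4.24 and 5.74 in MommeD43. Again the groups overlapped, with a log2 difference of 0.07 (0.22 without WT replicate 1) and an SD of 0.23.

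The ratios among T, Tbx6 and Msgn1 were tighter, which is not a result separate from the r of these genes above. T over Tbx6 was 3.87, 3.41 and 3.66 in WT and 3.3, 3.21 and 3.66 in MommeD43, with a log2 difference of -0.11 (-0.06 without WT replicate 1), the largest of the 5 ratios and about the size of its SD of 0.1. Msgn1 over Tbx6 was 2.53, 2.56 and 2.57 in WT and 2.09, 2.56 and 2.81 in MommeD43 (log2 difference -0.05, SD 0.14), and the low value was the MommeD43 male. T over Msgn1 was 1.53, 1.33 and 1.42 in WT and 1.58, 1.25 and 1.3 in MommeD43 (log2 difference -0.06, SD 0.13). The groups overlapped in all 5 ratios. No test was run on them.

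The other genes of the caudal epiblast and of neuromesodermal progenitors were counted in the same way. Of 13 such genes 12 were autosomal and tested, 0 were called between the genotypes, 8 had a positive and 4 a negative log2 fold change, and the median was 0.01. Cdx2, a caudal homeobox gene and the most abundant tested member at 165 RPKM, had a log2 fold change of -0.02 ± 0.09 (SE, limma adjusted p = 0.999), and its X-linked relative Cdx4, outside the test, was at 238 RPKM. The smallest unadjusted p in each direction belonged to Hes3, a repressor of the Hes family (log2 fold change 0.31 ± 0.25, limma adjusted p = 0.999), and Wnt3a, the Wnt ligand that sustains the progenitors (-0.09 ± 0.26, adjusted p = 0.999). Of the 12, 9 were highest in WT replicate 1, against the 18.5% given above, and 11 were higher in both MommeD43 females than in both WT females, against 21.8%. For 12 of 12 the male difference was more negative than the female one. Evx1, a homeobox gene of the streak, and Wnt3a passed that test (limma adjusted p = 0.0276 and 0.0493). These genes were listed with earlier results of these data known, so the counts describe them and support nothing further.

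**Figure D4:**
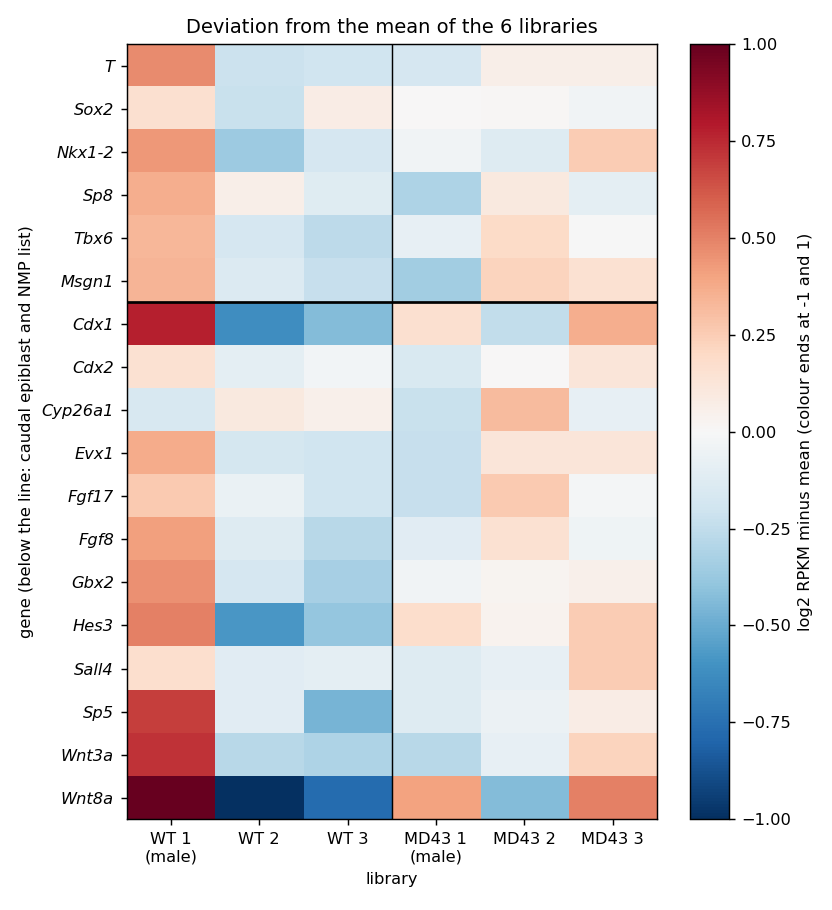
Deviation of log2 RPKM from the mean of the 6 libraries (colour, red above and blue below, ending at -1 and 1) for the 6 genes above the line and 12 tested genes of the caudal epiblast and neuromesodermal progenitors below it, with libraries on the x axis. The column of WT replicate 1 is the reddest for 6 of 6 genes above the line and 9 of 12 below it.

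No gene of the tissues that the progenitors give rise to, or pass through, passed the genotype test after adjustment. In the primitive streak and nascent mesoderm list 7 of 9 genes were tested and 0 called. Snai1, a repressor that drives epithelial cells into migration, was the most abundant at 24.1 RPKM (log2 fold change 0.06 ± 0.16). Mesp1, an early mesoderm gene at 1.3 RPKM, had 1.01 ± 0.99 (limma adjusted p = 0.999) and Mixl1, a streak homeobox gene, -0.12 ± 0.34 (adjusted p = 0.999).

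In the PSM list 10 of 14 were tested and 0 called, with 9 positive and 1 negative fold changes and a median of 0.12. Hes7, the oscillating repressor of the segmentation clock, was the only one at an unadjusted p under 0.05 (0.47 ± 0.2, limma adjusted p = 0.999), against 2.4% of autosomal genes. Rspo3, a Wnt agonist and the most abundant at 37 RPKM, had 0.01 ± 0.1, and the negative one was Meox1, a somite homeobox gene (-0.03 ± 0.19).

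In the neural plate and tube list 8 of 11 were tested and 0 called, with 4 positive and 4 negative fold changes and a median of 0.02. Hes5, a Notch target of neural progenitors, was highest at 9.3 RPKM (-0.06 ± 0.29). Sox21, a relative of Sox2, was at 0.171 RPKM (0.47 ± 0.49, limma adjusted p = 0.999) and Pax3, a dorsal neural and somite gene, at 1.26 RPKM (-0.27 ± 0.26, adjusted p = 0.999).

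Relatives of the 6 genes in the T-box, SoxB, Nkx1, Sp and Mesp families were mostly low. 11 of 22 were tested and 0 called, with a median log2 fold change of -0.05, and Nkx1-1 and Sox14 had no read in any library. Sp5, a Wnt target and relative of Sp8, was the most abundant at 23.4 RPKM (log2 fold change -0.08 ± 0.25). Tbx3, a T-box repressor, had -0.07 ± 0.08 (limma adjusted p = 0.999).

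The tissue was read against its labels through the same lists. The 13 caudal epiblast genes summed to between 692 and 953 RPKM and the PSM list to between 120 and 158 RPKM, while the neural plate and tube list summed to between 17.8 and 27.1 RPKM. Within that neural list Sox1, a gene that marks neural stem cells, was at 0.207 RPKM, but Hes5 was at 9.3 RPKM. Sox2 was at 13.8 RPKM and T at 138 RPKM. The tailbud label was followed because of the high caudal epiblast sums and the level of T. No neural stem cell library was compared here.

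Markers of neighbouring tissues also moved between libraries. The 9 yolk sac endoderm genes, all tested, summed to 140, 251 and 284 RPKM in WT and to 441, 52.5 and 38.5 RPKM in MommeD43. 9 of 9 were highest in the MommeD43 male. Its Sp8 and Msgn1 were the lowest of all libraries, and its T and Tbx6 the lowest among MommeD43 embryos. That T (121 RPKM) and Tbx6 (36.5 RPKM) still lay above both WT females. Its Nkx1-2 (62.9 RPKM) and Sox2 (13.8 RPKM) were not the lowest among MommeD43 embryos. Of the 9 yolk sac genes 6 passed the test of male against female difference, against 0.272% of autosomal genes. The 6 gut endoderm genes ran from 131 to 165 RPKM in WT and from 119 to 185 RPKM in MommeD43, with the highest sum in the MommeD43 male too. The 9 erythroid genes summed to 8.96, 486 and 205 RPKM in WT and to 25.5, 220 and 22.8 RPKM in MommeD43, in replicate order.

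The 7 notochord and node genes, a tissue that also uses T, summed to between 15 and 21.3 RPKM in WT and between 10.4 and 18.7 RPKM in MommeD43, and they were at their WT minimum in WT replicate 1, where T was highest. The 7 endothelial genes summed to between 40.6 and 56.7 RPKM in WT and between 43.6 and 55.5 RPKM in MommeD43, and the 7 lateral mesoderm and allantois genes to between 152 and 167 RPKM and between 151 and 180 RPKM. Every gene of these 6 lists had reads in at least 1 library. The part that differences in dissected tissue had in the levels of the 6 genes was not tested.

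**Figure D5:**
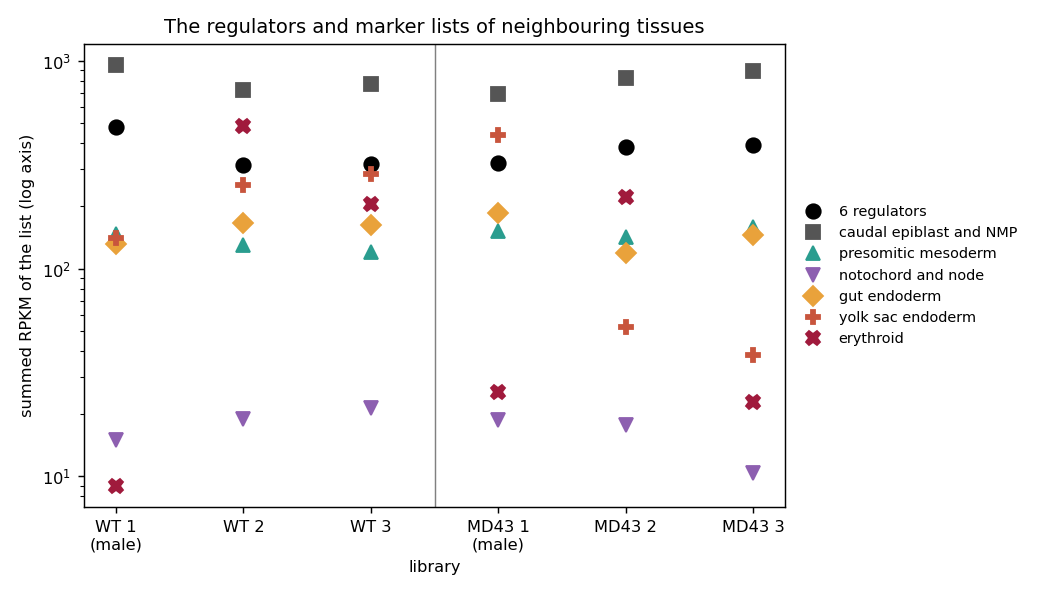
Summed RPKM (log y axis) of the 6 genes and of marker lists for the caudal epiblast, PSM and neighbouring tissues in each library (x axis, WT left and MommeD43 right of the line). The sum of the 6 genes stays between 316 and 480 RPKM, while the yolk sac list runs from 38.5 to 441 RPKM and the erythroid list from 8.96 to 486 RPKM.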

How the data were processed

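The authors trimmed reads with Trim Galore 0.4.4 and aligned them with HISAT2 2.0.5 to GRCm38.p6, and quantified genes in SeqMonk. The deposited values are log2 RPKM per library; strand settings are not given in the sources used here. A gene without a read sits at the value of 0.9 read, which is higher in smaller libraries. With GENCODE M21 exon lengths, 99.0% of 105978 values above that floor came out as whole reads (within 0.02). Of 35591 entries 35555 matched the annotation, and 49 of these with a repeated identifier were dropped, leaving 35506 genes. The authors' means per group were not used.

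Genes with at least the equivalent of 10 reads in the median library in 3 libraries and 15 reads in all were kept: 14134, of which 13617 autosomal were tested. Genotypes were compared on log2 RPKM with limma 3.58.1 in R 4.3.3 (moderated, with a mean-variance trend, two-sided), adjusted by Benjamini-Hochberg over all autosomal genes tested, and called at an adjusted p under 0.05. The sex comparison used a coefficient for each sex and genotype. Correlations used exact permutation of 720 pairings (scipy 1.17.1). The fit was tested on simulated data. Alternatives were the median-ratio scaling, no filter or a mean of at least 1 RPKM, pseudocounts of 0.1 and 1 RPKM, no trend, voom on the recovered reads, sex as a covariate, X-linked genes, leaving out each library, females alone and the replicate block; r without WT replicate 1 was added after seeing the data. P-values of the genotype comparison measure the spread between these embryos. Those of the sex comparison measure the spread of the females, moderated across genes, and those of the correlations come from the permuted pairings. The 6 genes and all lists were chosen with earlier results of these data known. The text names the 6 genes, Smchd1, from each of the 5 developmental lists the most abundant tested gene and the one of smallest p in each direction, and for each of the 6 genes the 3 most alike genes; Cdx4, Evx1, Sox1, Nkx1-1, Sox14, Gm16764 and Sox2ot were named after their values were seen. RefSeq windows were matched by symbol for 6 of 6 genes.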

Additional observations from a re-analysis of the deposited data

Results flagged for a closer look

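The genotype difference of T and of Msgn1 was compared between the male pair and the females. For T the male difference minus the female difference was -0.91 on the log2 scale (limma adjusted p = 0.0275), with the MommeD43 male below the WT male by a log2 difference of -0.65 and the MommeD43 females above the WT females by 0.26. For Msgn1 it was -1.06 (limma adjusted p = 0.0263), from -0.69 for the males and 0.37 for the females. Both were singled out because a test of the difference between the sexes passed, in a design with 1 male a genotype, where both males had the same mother and the error came from the 4 females alone. Neither passed without WT replicate 2 (limma adjusted p = 0.237 for T and 0.134 for Msgn1), without WT replicate 3 (0.224 and 0.219) or without the mean-variance trend (0.272 for both). The same MommeD43 male carried the highest summed level of 9 yolk sac endoderm genes, 441 RPKM, and of 6 gut endoderm genes, 185 RPKM. The part of that tissue in the difference was not tested.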

How the results depend on the processing

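The count of autosomal genes called between the genotypes was 0 under every alternative (limma) except among the females alone, where it was 10; at an unadjusted p under 0.05 the others gave from 187 to 944. Females alone also turned the sign of the log2 fold changes of T (0.26), Sox2 (0.07) and Sp8 (0.03). Leaving out 1 library at a time, they ran from -0.15 to 0.19 for T, -0.12 to 0.07 for Sox2, -0.11 to 0.29 for Nkx1-2, -0.31 to -0.07 for Sp8, -0.05 to 0.25 for Tbx6 and -0.09 to 0.20 for Msgn1, and none passed after adjustment. The genes called for a male difference minus female difference numbered 111 without the filter on low values, 0 without the mean-variance trend (1303 at an unadjusted p under 0.05, limma), and from 5 to 556 without 1 female. Without the trend the differences of T and Msgn1 kept their values, -0.91 and -1.06, but did not pass. Without 1 female, they ran from -0.91 to -0.91 for T and from -1.11 to -1.02 for Msgn1, both not passing without WT replicate 2 or WT replicate 3; from -0.99 to -0.61 for Nkx1-2, passing without MommeD43 replicate 2 (adjusted p = 0.00498); from -0.82 to -0.62 for Tbx6, passing without MommeD43 replicate 2 (0.0203) or MommeD43 replicate 3 (0.00959); and from -0.80 to -0.60 for Sp8, passing without MommeD43 replicate 3 (0.0432). Where a call changed, the cause was not tested. Leaving out a male gives no such contrast and was not run. Pearson r turned negative without the 2 farthest libraries for Sox2 with T (-0.68), Nkx1-2 (-0.87), Tbx6 (-0.56) and Msgn1 (-0.46) and for Nkx1-2 with Sp8 (-0.64) and Msgn1 (-0.13), and without WT replicate 1 for Sox2 with Sp8 (-0.40) and Msgn1 (-0.01) and for Nkx1-2 with Sp8 (-0.41).

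Same-numbered embryos share no mother beyond the males, and their deviations from the group means correlated at -0.026, 0.167 and -0.173 across genes. These correlations cannot decide whether the numbers pair the samples, because the deviations within a group sum to 0. The paper describes pairs of embryos matched by somites, and its text does not say which embryos form a pair. A fit with the replicate block called 0 genes (307 at an unadjusted p under 0.05, limma), and changed no call for the 6 genes. Depth limits the MommeD43 male most.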

Other observations

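For each of the 6 genes, the autosomal genes with the most alike profile over the 6 libraries were looked up among 510 genes (511 for Sox2) with a mean of at least 5 RPKM and an SD of at least 0.2 on the log2 scale. The measure was Pearson r over 6 libraries, given as a description with no p, and the highest of so many values is large by selection. T was most like Sppl2b (0.976), Crmp1 (0.975) and Wnt3a (0.970). Tbx6 was most like Fgf8 (0.982), Castor1 (0.957) and Notum (0.948). Msgn1 was most like Evx1 (0.968), Sapcd2 (0.949) and Efna3 (0.947). Nkx1-2 was most like Etv4 (0.985), Jmjd7 (0.979) and Zscan10 (0.978). Sp8 was most like AC134908.4 (0.950), Fam222a (0.922) and Tubb3 (0.863). For Sox2 the highest values were lower, at 0.818 for Clk4, 0.793 for Man2c1 and 0.784 for Snhg4. The SD of Sox2 over the 6 libraries was 0.13, below the 0.2 asked of the genes compared. Counting error weighs more in so small a spread and can lower r.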
